A study of Homo sapiens with 9 samples.

Results

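The comparison is of 2 stable derivatives of HCT116, an established human colon carcinoma line: cells carrying a construct labelled STBD1 W203C and cells carrying the empty vector, plvx neo. Libraries were chosen by their sample titles, 3 for each of the 2 groups, which makes 6 of the 9 libraries of the series. The other 3, labelled STBD1 WT, carried the construct without the substitution and are shown beside the 6 only where they add a level. All 9 libraries, the vector controls included, came from cells with a lentiviral short hairpin RNA against STBD1 (shSTBD1), and the constructs were made resistant to it. The constructs were delivered by lentivirus in a vector selected with G418, the cells were kept in DMEM with fetal bovine serum, and no drug or time course was part of these groups. RNA sequencing measured each gene as an RSEM expected count and as TPM, a level scaled for transcript length and to the same total in each library. The series calls the libraries biological replicates but does not say whether each came from its own infection, so p-values measure the spread between libraries of a stable line.

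The labels of the 2 constructs were not settled by the data. The deposited tables of the 3 libraries labelled STBD1 W203C carry WT in their names, and those of the 3 labelled STBD1 WT carry W203C. The supplementary expression table of the study uses the names of the tables. Over the 197 genes compared, the columns it names WT matched the 3 libraries labelled STBD1 W203C within 0.006 TPM at every gene. The sample titles were followed, so STBD1 W203C below means the libraries labelled so, and an exchange of the 2 labels would make every difference from plvx neo given here one of the unmutated construct. The gene tables hold no base calls, so the codon itself was not checked.

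STBD1 is a membrane protein with a carbohydrate-binding domain that binds glycogen and is thought to bring it to autophagosomes, a process named glycophagy. It contacts proteins of the ATG8 family through a short LC3-interacting region (LIR) whose first aromatic residue is the tryptophan that W203C names. The construct replaces it with cysteine, and the comparison asks which genes differ when that construct is added to cells otherwise short of STBD1. The reference codon is shown because the whole design turns on it. It lies in exon 2 of STBD1 on the plus strand of hg38, at chr4:76309530-76309532, and is given in capitals within chr4:76309515-76309547, 5′ to 3′, from the GENCODE v44 transcript.

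STBD1 W203C site: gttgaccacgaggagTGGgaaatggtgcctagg

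STBD1 RNA was higher with the construct, which is the check of the labels that these data allow for vector against construct. STBD1 (ENSG00000118804, chr4:76306733-76311130) stood at 2.75, 3.84 and 3.21 TPM in the plvx neo libraries and at 8.75, 8.37 and 10.33 TPM in the STBD1 W203C libraries. Its log2 fold change was 1.45 (SE 0.104, adjusted p = 1.27e-09, quasi-likelihood test of edgeR, Benjamini-Hochberg adjusted over every gene tested). FAM47E-STBD1 (ENSG00000272414, chr4:76251721-76311129), a read-through gene that shares exons with STBD1, stood at 1.37, 0.96 and 2.41 TPM against 34.74, 38.4 and 37.6 TPM, a log2 fold change of 3.78 (SE 0.133, adjusted p = 2.64e-15). Between 58.2% and 64.0% of the reads of this pair of genes were assigned to the read-through in the STBD1 W203C libraries, against 13.1% to 29.7% in plvx neo. Because the authors' counting divides shared reads between overlapping genes, neither value is certain alone. Their summed level was 4.85 ± 0.751 TPM (SD, n = 3) in plvx neo and 46.1 ± 2.30 TPM (SD, n = 3) in STBD1 W203C, 9.50 times as high, while the summed counts gave a log2 fold change of 2.41 (SE 0.0705, adjusted p = 3.46e-17). The 2 groups did not overlap, and p was 0.1 in a two-sided exact permutation test on this sum, which 3 libraries against 3 cannot go below. In the libraries labelled STBD1 WT the sum was 54.6 ± 2.39 TPM (SD, n = 3).

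Of 15081 genes tested, 859 differed between STBD1 W203C and plvx neo at an adjusted p below 0.05, which is 5.70% of them. There were 457 higher (3.03%) and 402 lower (2.67%) in STBD1 W203C. These shares are the values to set beside every count of called list members below. Lists and members were chosen with earlier results of these data known. Such counts are thus a description and support nothing about a pathway. Called genes had an absolute log2 fold change of 0.26 at the median, and 104 genes (0.690%) were both called and changed by at least 1.5 times, 54 higher and 50 lower. By at least 2 times, 28 called genes were higher and 22 lower. The CPM (counts scaled to library size) of the 2 groups did not overlap at 3545 genes, 23.5% of those tested. A principal component analysis of the 6 libraries used the 500 most variable genes, and its first component held 27.5% of their variance. It placed the plvx neo libraries from -11.3 to -9.69 and the STBD1 W203C libraries from 9.02 to 11.3. The second component, with 20.2%, spread the plvx neo libraries from -6.98 to 7.62 and the STBD1 W203C libraries from -15.6 to 10.2. The call count varied with the library left out: it was 501 without STBD1 W203C replicate 1, 543 without STBD1 W203C replicate 2 and 459 without plvx neo replicate 3. It was 818 without STBD1 W203C replicate 3, 738 without plvx neo replicate 1 and 733 without plvx neo replicate 2. On log2(TPM + 1) with limma, 131 genes were called, 97 higher and 34 lower, so that 74.0% of calls were higher in place of 53.2%.

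**Figure D1:**
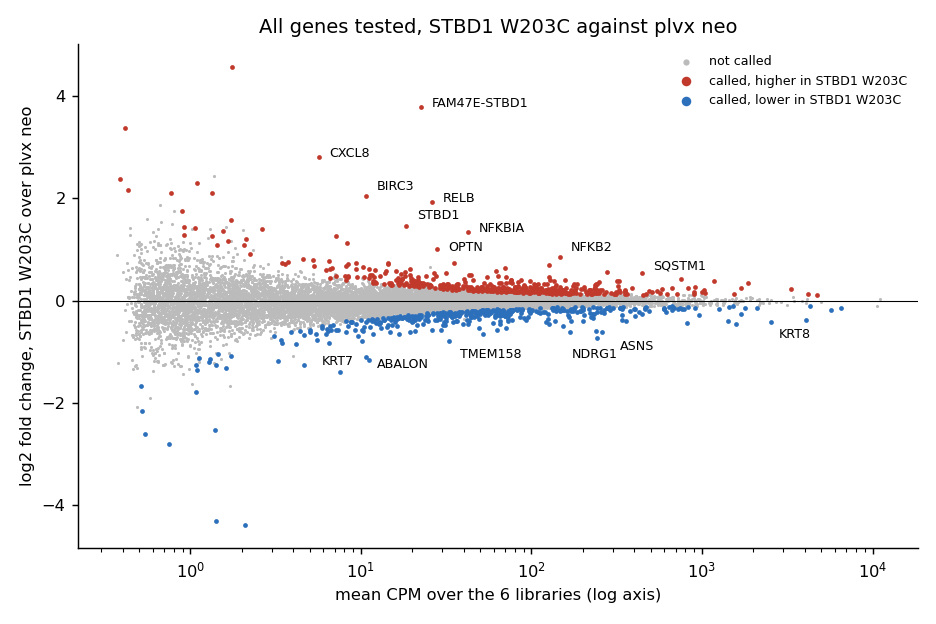
Each point is 1 of the 15081 genes tested, with its mean CPM over the 6 libraries on a log axis and its log2 fold change of STBD1 W203C over plvx neo. Red points are the 457 genes called higher and blue points the 402 called lower, and RELB, NFKBIA and NFKB2 stand out among the higher genes of middle and high level while most called genes lie close to 0.

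Among the 12 largest rises that met a mean of 5 CPM and groups without overlap, most beside FAM47E-STBD1 and STBD1 were genes of the NF-kB pathway. NF-kB is a family of dimeric transcription factors held in the cytoplasm by inhibitor proteins. Receptors such as those of the TNF family release it, through the canonical route by degradation of the inhibitor or through the non-canonical route by processing of the NFKB2 product. Its target genes include its own subunits and inhibitors, chemokines and inhibitors of cell death. CXCL8, BIRC3, RELB, NFKBIA, TNFAIP3, OPTN and NFKB2 all stood among the 12, with TMEM265, RPL17-C18orf32 and RAB43. Absence of overlap by CPM was a condition for these 12 and for the 12 largest falls below. Where groups are said to be apart for these genes, that is no separate observation.

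The promoters of 5 of these genes are shown for the kB motif, the short sequence that NF-kB dimers are known to bind. Each window runs from 250 bases before the start of the gene to 50 after it, 300 bases, 5′ to 3′ on the gene's strand, from RefSeq on GRCh38.p14. The kB motif was searched as GGANTTTCC or GGGATTTCC on both strands, with letters chosen after these windows had been seen. The spellings can overlap each other, and matches are in capitals. The motif occurred in 2.03% of all 35116 windows and in some window of 2.78% of the 10987 tested genes that had one. Of the 12 largest rises 10 had a window and 6 of these held it, namely BIRC3, CXCL8, NFKB2, NFKBIA, OPTN and TNFAIP3. RELB and TMEM265 had no window. The other 4 with a window lacked it. Of the 12 largest falls 6 had a window and 0 of these held it. Among NF-kB target genes with a window it was present in 11 of the 19 tested and in 8 of the 13 called. Because the letters were chosen with the windows seen, these shares are a description and support nothing about the rises. The leftmost base of the match lay 91 bases before the start in CXCL8 (chr4:73740319-73740618, plus strand), 199 before it in BIRC3 (chr11:102317234-102317533, plus strand), 242 and 81 before it in NFKBIA (chr14:35404700-35404999, minus strand), 67 and 55 before it in TNFAIP3 (chr6:137867009-137867308, plus strand) and 11 before it in OPTN (chr10:13099832-13100131, plus strand). These matches describe letters and not bound sites.

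CXCL8: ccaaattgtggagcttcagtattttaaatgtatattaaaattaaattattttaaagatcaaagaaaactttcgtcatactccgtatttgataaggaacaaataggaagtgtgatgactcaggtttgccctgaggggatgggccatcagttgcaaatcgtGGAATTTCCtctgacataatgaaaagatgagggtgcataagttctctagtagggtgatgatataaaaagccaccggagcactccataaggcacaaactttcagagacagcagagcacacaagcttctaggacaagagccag
BIRC3: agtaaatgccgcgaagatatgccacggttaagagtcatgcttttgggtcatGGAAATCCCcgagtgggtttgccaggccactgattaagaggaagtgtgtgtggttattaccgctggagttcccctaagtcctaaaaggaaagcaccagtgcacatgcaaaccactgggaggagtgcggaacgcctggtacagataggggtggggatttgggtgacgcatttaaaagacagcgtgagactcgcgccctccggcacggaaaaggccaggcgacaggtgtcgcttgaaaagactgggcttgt
NFKBIA: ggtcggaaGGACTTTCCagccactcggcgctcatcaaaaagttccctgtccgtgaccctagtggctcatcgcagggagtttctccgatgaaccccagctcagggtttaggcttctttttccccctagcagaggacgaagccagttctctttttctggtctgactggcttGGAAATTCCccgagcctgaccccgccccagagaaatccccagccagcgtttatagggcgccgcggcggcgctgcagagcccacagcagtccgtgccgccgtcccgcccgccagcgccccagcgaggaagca
TNFAIP3: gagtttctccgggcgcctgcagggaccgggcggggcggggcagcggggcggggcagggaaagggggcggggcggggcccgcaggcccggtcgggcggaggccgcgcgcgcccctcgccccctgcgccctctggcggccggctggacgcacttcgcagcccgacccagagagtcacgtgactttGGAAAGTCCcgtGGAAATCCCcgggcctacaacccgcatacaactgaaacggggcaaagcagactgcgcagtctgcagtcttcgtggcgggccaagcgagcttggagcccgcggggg
OPTN: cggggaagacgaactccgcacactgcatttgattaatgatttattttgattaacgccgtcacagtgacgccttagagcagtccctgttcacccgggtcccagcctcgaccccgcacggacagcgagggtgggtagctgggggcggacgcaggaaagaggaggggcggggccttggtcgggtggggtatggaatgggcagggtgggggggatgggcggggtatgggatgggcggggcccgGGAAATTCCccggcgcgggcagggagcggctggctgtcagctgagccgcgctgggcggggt

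Of the 14 subunits, inhibitors and kinases of NF-kB tested, 8 rose and 1 fell, against 5.70% of all genes called, and the median log2 fold change of the list was 0.33 against -0.0031 over all genes tested. RELB (ENSG00000104856, chr19:45001461-45038192), the subunit that pairs with the NFKB2 product in the non-canonical route, stood at 6.10, 5.48 and 6.75 TPM in plvx neo and at 24.12, 21.74 and 23.58 TPM in STBD1 W203C. Its libraries did not overlap between the groups, and its log2 fold change was 1.93 (SE 0.0907, adjusted p = 7.96e-13). NFKBIA (ENSG00000100906, chr14:35401079-35404749) encodes the inhibitor I-kappa-B alpha, which holds the canonical dimer in the cytoplasm and is itself a target of it. It stood at 23.26, 21.44 and 21.42 TPM in plvx neo and at 63.74, 58.53 and 65.2 TPM in STBD1 W203C, a log2 fold change of 1.34 (SE 0.0652, adjusted p = 1.15e-12). NFKB2 (ENSG00000077150, chr10:102394110-102402524), whose product is processed to the p52 subunit, went from 43.43, 42.03 and 44.95 TPM to 82.42, 79.57 and 77.22 TPM, with a log2 fold change of 0.85 (SE 0.0430). NFKB1, the gene of the p105 precursor and its p50 subunit, had a mean of 13.5 ± 0.714 TPM (SD, n = 3) in plvx neo and 19.4 ± 0.701 TPM (SD, n = 3) in STBD1 W203C, a log2 fold change of 0.47 (SE 0.0537). NFKBIE, REL, NFKBIB and BCL3 also rose. RELA, the transactivating subunit of the canonical dimer, had 47.0 ± 1.76 and 54.6 ± 5.16 TPM (SD, n = 3 each) and was not called, its log2 fold change being 0.09 (SE 0.0481, adjusted p = 0.301, edgeR). The member that fell was MAP3K14, the NF-kB-inducing kinase at the head of the non-canonical route, with 5.38 ± 0.438 TPM in plvx neo and 4.10 ± 0.503 TPM in STBD1 W203C (SD, n = 3 each) and a log2 fold change of -0.42 (SE 0.0859, adjusted p = 0.00298, edgeR). It overlaps an antisense gene, and without stated use of strand their reads cannot be told apart. With limma on log2(TPM + 1), 5 of the 14 members were called.

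NF-kB target genes rose widely: 13 of 21 tested were called, all 13 higher, and the median log2 fold change of the 21 was 0.46. Of the 21, 3 reached the count filter in every STBD1 W203C library but not in every plvx neo library (CXCL1, CXCL3 and TNFRSF9), so that their passing depended on the group in which they were higher. Of the other 18, 11 rose and 0 fell, with a median of 0.42. CXCL8, the neutrophil chemokine interleukin-8, stood at 1.6, 1.23 and 1.3 TPM in plvx neo and at 8.80, 9.07 and 7.16 TPM in STBD1 W203C. Every STBD1 W203C library was thus above every plvx neo library, and the log2 fold change was 2.81 (SE 0.172, adjusted p = 6.56e-11). BIRC3, the ubiquitin ligase cIAP2 that restrains cell death and the non-canonical kinase, stood at 1.02, 0.98 and 1.12 TPM against 4.11, 4.23 and 5.05 TPM, a log2 fold change of 2.05 (SE 0.124, adjusted p = 6.53e-11). TNFAIP3, the deubiquitinase A20 that ends NF-kB signalling, stood at 1.96, 2.79 and 1.64 TPM against 3.50, 3.95 and 3.92 TPM, with a log2 fold change of 1.12 (SE 0.132). CD83, a surface protein best known from dendritic cells, had 5.13 ± 0.216 TPM in plvx neo and 8.75 ± 0.765 TPM in STBD1 W203C (SD, n = 3 each), and SDC4, a heparan sulfate proteoglycan, 47.6 ± 2.37 and 67.1 ± 1.74 TPM. TNFRSF9, a costimulatory receptor, was close to 0 in plvx neo at 0.03, 0.05 and 0.03 TPM and stood at 1.1, 0.75 and 0.55 TPM in STBD1 W203C. The other called members were CXCL1, IL32, TNFAIP2, ICAM1, IRF1, PLAU and TNIP1. A further 12 members, IL6, IL1A, IL1B, TNF and CCL20 among them, were below the count filter and not tested. DESeq2 called 9 of the list and limma 6.

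**Figure D2:**
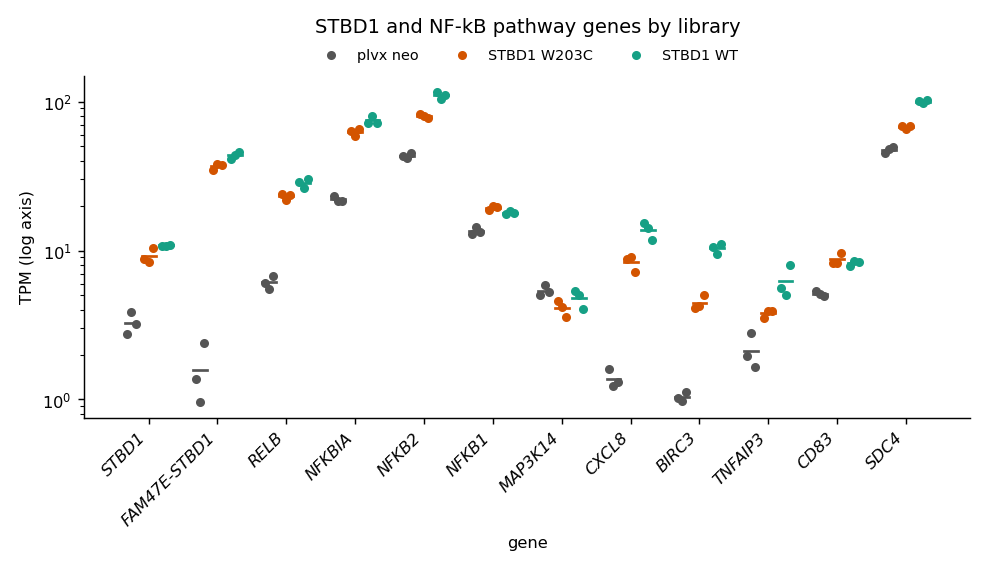
TPM on a log axis of STBD1, its read-through gene and 10 NF-kB pathway genes in each library, with 3 points per group and a bar at the mean, for plvx neo, STBD1 W203C and STBD1 WT. All genes shown except MAP3K14 are higher in every STBD1 W203C library than in every plvx neo library, and CXCL8 and BIRC3 are higher again in the libraries labelled STBD1 WT.

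OPTN and SQSTM1, the genes of 2 receptors that carry ubiquitinated cargo to autophagosomes, rose as well. OPTN, the optineurin gene, stood at 8.62, 8.98 and 10.43 TPM in plvx neo and at 20.49, 19.27 and 20.03 TPM in STBD1 W203C, a log2 fold change of 1.01 (SE 0.0716, adjusted p = 9.49e-10). SQSTM1, which encodes p62, stood at 239.3, 213.8 and 285.9 TPM against 373.0, 401.5 and 382.0 TPM, with a log2 fold change of 0.53 (SE 0.0350, adjusted p = 3.04e-10). Both overlap genes on the other strand. Of the 14 selective autophagy receptors tested these 2 rose and 2 fell, the mitophagy receptors BNIP3 and BNIP3L, and the list's median log2 fold change was -0.0032. Without STBD1 W203C replicate 1, STBD1 W203C replicate 2 or plvx neo replicate 3 the number called was 2 in each case. The core autophagy machinery showed few calls: of 31 genes tested, the ATG8 family included, 0 rose and 2 fell, a share of 6.45% against the 5.70% of all genes. They were ATG12, the ubiquitin-like conjugate of ATG5, with 142 ± 4.22 TPM in plvx neo and 115 ± 8.57 TPM in STBD1 W203C (SD, n = 3 each) and a log2 fold change of -0.28 (SE 0.0437), and WDR45B. One was called without STBD1 W203C replicate 1 or 3, or plvx neo replicate 1 or 3. Of 41 lysosomal genes 3 rose (7.32%), ATP6V0C, ATP6V0D1 and CTSD, with ATP6V0C, the membrane rotor of the proton pump, at 135 ± 3.32 and 164 ± 1.41 TPM (SD, n = 3 each). Without STBD1 W203C replicate 1 or plvx neo replicate 2, 1 lysosomal gene was called. Of 24 genes of glycogen metabolism 2 were called (8.33%): GYS1, the glycogen synthase of most tissues, rose and PYGB, a glycogen phosphorylase, fell. That count was 0 without STBD1 W203C replicate 1 or plvx neo replicate 3 and 1 without STBD1 W203C replicate 3 or plvx neo replicate 2. Limma called 2 of the selective receptors, 1 lysosomal gene and 0 genes of the autophagy machinery and of glycogen metabolism.

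Genes of antigen presentation by HLA class I rose in part. Of 18 tested, 8 rose and 0 fell, with a median log2 fold change of 0.19. TAPBP, the gene of tapasin, which loads peptides onto class I molecules, stood at 17.37, 17.99 and 17.92 TPM in plvx neo and at 26.58, 29.83 and 28.34 TPM in STBD1 W203C, a log2 fold change of 0.58 (SE 0.0504, adjusted p = 3.92e-08). TAP1, a subunit of the peptide transporter, had 26.1 ± 1.65 against 35.7 ± 1.56 TPM (SD, n = 3 each) and a log2 fold change of 0.46 (SE 0.0495). It overlaps PSMB9 on the other strand, so the 2 calls may share reads. B2M, the invariant light chain, went from 561 ± 20.4 to 667 ± 17.5 TPM (SD, n = 3 each), a log2 fold change of 0.22 (SE 0.0372). ERAP2, PSMB9, PSME1, PSME2 and TAP2 made up the rest. The count was 4 without STBD1 W203C replicate 1 and 5 without plvx neo replicate 2 or 3. Of 27 interferon-stimulated genes 5 rose and 0 fell, namely RIGI, OAS3, DTX3L, IFIH1 and ISG15. OAS3, an enzyme that senses double-stranded RNA, stood at 11.28, 11.14 and 13.13 TPM against 18.48, 18.91 and 19.18 TPM, a log2 fold change of 0.63 (SE 0.0494, adjusted p = 5.88e-09), and RIGI, a cytosolic RNA sensor, had 1.62 ± 0.0971 against 2.65 ± 0.315 TPM (SD, n = 3 each). Limma called 5 of the presentation genes and 2 of the interferon-stimulated genes. In the TNF receptor family 4 of 19 rose, TNFRSF9 among them, and 3 fell, while limma called 1. TNFRSF9 reached the count filter in 0 plvx neo and 3 STBD1 W203C libraries, and TNFRSF1B, not called, in 3 and 1. The passing of each thus depended on the group in which it was higher. Of the other 17 members 3 rose and 3 fell. FAS, the death receptor, had 8.60 ± 0.774 and 11 ± 1.68 TPM, overlapping by TPM although called on counts (log2 fold change 0.41, SE 0.0906), TNFRSF10B, a TRAIL receptor, 60.3 ± 5.40 and 72.7 ± 0.881 TPM, and TNFRSF6B, a soluble decoy receptor, 38.3 ± 0.692 and 30.7 ± 3.99 TPM (SD, n = 3 each). TNFRSF6B overlaps the read-through gene RTEL1-TNFRSF6B on the same strand, so its level is uncertain. Leukocyte markers were near 0 in both groups: 11 markers summed to 3.22 to 3.58 TPM in plvx neo and 2.99 to 4.71 TPM in STBD1 W203C, and CD3E, CD3D and FCGR3A were at 0 in all 6 libraries.

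Immediate-early genes, which growth factors and stress switch on without new protein synthesis, changed in most cases. Of 25 tested, 17 rose and 3 fell, with a median log2 fold change of 0.23, but limma called 6 in place of 20. EGR3 stood at 5.97, 8.01 and 8.20 TPM in plvx neo and at 13.7, 14.35 and 14.24 TPM in STBD1 W203C, a log2 fold change of 0.74 (SE 0.0721, adjusted p = 2.45e-07). JUND, a member of the AP-1 family, stood at 143.6, 140.3 and 149.2 TPM against 203.3, 211.0 and 212.9 TPM, with a log2 fold change of 0.40 (SE 0.0474, adjusted p = 4.34e-06). NR4A3, an orphan nuclear receptor, had 5.60 ± 0.760 against 8 ± 0.851 TPM and EGR2 7.30 ± 1.43 against 9.65 ± 0.670 TPM (SD, n = 3 each). The 3 that fell were CCN2, KLF2 and IER5. Of 17 tested genes that limit or report ERK signalling, 2 rose (FOSL1 and PHLDA1) and 4 fell (DUSP6, SPRY4, ETV5 and ETV4), with a median of -0.09. DUSP6, the phosphatase of ERK, stood at 67.48, 77.57 and 78.47 TPM in plvx neo and at 50.62, 53.44 and 62.42 TPM in STBD1 W203C, a log2 fold change of -0.46 (SE 0.0624, adjusted p = 3.95e-05). SPRY4, an inhibitor of receptor signalling, had 22.1 ± 1.57 and 19.6 ± 1.11 TPM (SD, n = 3 each), values that overlapped by TPM, with a log2 fold change on counts of -0.31 (SE 0.0528). Limma called 1 of these 17.

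Target genes of p53 rose in part: 13 of 26 were called, all higher, with a median log2 fold change of 0.21. CDKN1A, the gene of the cell cycle inhibitor p21, stood at 153.8, 156.8 and 165.6 TPM in plvx neo and at 211.3, 212.4 and 221.7 TPM in STBD1 W203C. The log2 fold change was 0.39 (SE 0.0357, adjusted p = 8.22e-08), without overlap between the groups. TP53I3, an oxidoreductase, had 9.86 ± 1.27 against 14.1 ± 1.3 TPM and BTG2, an antiproliferative gene, 17.9 ± 2.00 against 24.6 ± 0.686 TPM (SD, n = 3 each). MDM2, GDF15, BBC3, BAX, FAS, FDXR, PLK3, RRM2B, TNFRSF10B and TP53INP1 were the other called members. In the BCL2 family, which sets the threshold for mitochondrial cell death, 5 of 15 rose and 1 fell. The 5 encode members that promote death, BIK, BCL2L11, BBC3, PMAIP1 and BAX. BIK had 23.9 ± 1.21 against 34.8 ± 5.80 TPM (log2 fold change 0.50, SE 0.0972), PMAIP1 53.2 ± 5.09 against 64.9 ± 1.43 TPM (0.24, SE 0.0506) and BCL2L11 7.14 ± 1.65 against 11.4 ± 3.22 TPM (0.33, SE 0.0669), the last with groups that overlapped by TPM (SD, n = 3 each). The member that fell was BCL2L1, the gene of the survival protein BCL-xL, at 109.8, 112.3 and 111.2 TPM in plvx neo and 75.83, 73.23 and 80.03 TPM in STBD1 W203C. Its log2 fold change was -0.61 (SE 0.0408, adjusted p = 3.14e-10). ABALON, a long noncoding gene that overlaps BCL2L1 on the other strand, went from 9.29 ± 0.696 to 4.46 ± 0.442 TPM (SD, n = 3 each), a log2 fold change of -1.09 (SE 0.112), and the reads of this pair cannot be told apart. Limma called 2 of the p53 list and 1 of the BCL2 family.

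Genes of the amino acid response under ATF4 fell in part. ATF4 is the transcription factor of the integrated stress response, which raises enzymes of amino acid synthesis, amino acid transporters and tRNA synthetases when amino acids are short. Of 30 genes of this response tested, 13 fell and 3 rose, with a median log2 fold change of -0.17, and ATF4 itself was among those that fell. Limma called 4 of them in place of 16. ASNS (ENSG00000070669, chr7:97851677-97872542), asparagine synthetase, stood at 194.7, 202.4 and 198.3 TPM in plvx neo and at 129.2, 123.6 and 153.3 TPM in STBD1 W203C. The groups were apart, STBD1 W203C replicate 3 being the nearest to plvx neo, and the log2 fold change was -0.61 (SE 0.0571, adjusted p = 1.31e-07). PSAT1, an enzyme of serine synthesis, stood at 154.7, 164.8 and 160.3 TPM against 96.45, 103.3 and 127.0 TPM, a log2 fold change of -0.60 (SE 0.0635, adjusted p = 9.93e-07). PCK2, the mitochondrial phosphoenolpyruvate carboxykinase, had 33.0 ± 1.74 against 22.1 ± 4.03 TPM (log2 fold change -0.64, SE 0.0724) and TRIB3, a pseudokinase, 39.5 ± 1.08 against 31.2 ± 3.09 TPM (-0.40, SE 0.0639; SD, n = 3 each). CHAC1, which degrades glutathione, stood at 9.10, 10.61 and 9.57 TPM against 5.44, 5.18 and 9.17 TPM, so that its STBD1 W203C replicate 3 lay inside the plvx neo range by TPM. The rises were ATF3, ATF5 and SLC38A2. The cytosolic tRNA synthetases, which charge tRNAs with amino acids, also fell in part: of 20 tested 10 fell and 0 rose, with a median of -0.13. CARS1 had 65.5 ± 1.07 against 50.7 ± 2.87 TPM (-0.41, SE 0.0447), SARS1 136 ± 3.42 against 108 ± 7.63 TPM (-0.39, SE 0.0458) and AARS1 129 ± 3.34 against 108 ± 3.35 TPM (-0.28, SE 0.0393; SD, n = 3 each). GARS1, YARS1, MARS1, WARS1, IARS1, FARSB and EPRS1 completed the 10, and 6 synthetases were called without STBD1 W203C replicate 1 and 5 by limma. Of 22 genes of ER chaperones and the unfolded protein response, 1 rose, CANX, a share of 4.55% against the 5.70% of all genes. Its call was lost without STBD1 W203C replicate 1 or 2 or plvx neo replicate 1 or 3.

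The promoter of ASNS is shown for the amino acid response element, the composite site through which ATF4 acts. The search used TGATGNAA on both strands, which occurred in 3.62% of all windows and in 2.63% of the tested genes that had a window. It was present in 5 of the 14 called genes of the ATF4 list with a window (ASNS, ATF3, CEBPG, CHAC1 and MTHFD1L) and in 5 of the 9 called synthetase genes with one (AARS1, CARS1, GARS1, IARS1 and MARS1). Among all tested members with a window it was present in 8 of 25 and in 7 of 16. Members of the ATF4 list were chosen as known genes of that response, so these shares are a description and support nothing about the falls. In ASNS (chr7:97872359-97872658, minus strand) the match, in capitals, lies 68 bases before the start.

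ASNS: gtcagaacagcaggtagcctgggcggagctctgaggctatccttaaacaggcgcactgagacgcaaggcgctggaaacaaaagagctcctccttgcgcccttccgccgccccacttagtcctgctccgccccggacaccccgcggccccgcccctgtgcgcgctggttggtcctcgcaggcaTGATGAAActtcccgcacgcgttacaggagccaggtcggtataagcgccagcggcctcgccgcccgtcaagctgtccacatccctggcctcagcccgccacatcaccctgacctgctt

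Hypoxia-inducible genes outside glycolysis fell in part: of 35 tested, 14 fell and 2 rose (ADM and BHLHE40), with a median log2 fold change of -0.22. These genes are known as targets of HIF transcription factors, which accumulate when oxygen is low. NDRG1, a hypoxia-responsive gene also called a metastasis suppressor, stood at 115.7, 130.6 and 132.0 TPM in plvx neo and at 77.69, 83.06 and 75.66 TPM in STBD1 W203C. No library of one group reached the other, and the log2 fold change was -0.73 (SE 0.0385, adjusted p = 3.68e-12). ANGPTL4, an inhibitor of lipoprotein lipase, stood at 13.71, 16.07 and 17.8 TPM against 8.97, 12.27 and 11.74 TPM, a log2 fold change of -0.61 (SE 0.105, adjusted p = 0.000624, edgeR). LOXL2, an enzyme that crosslinks collagen, had 17.8 ± 0.278 against 13.5 ± 0.772 TPM (-0.45, SE 0.0707) and SLC2A1, the glucose transporter GLUT1, 227 ± 10.2 against 192 ± 16.7 TPM (-0.39, SE 0.0375; SD, n = 3 each). PPFIA4, PFKFB4, MXI1, PDK1, INSIG2, P4HA1, BNIP3, PLOD2, FAM162A and BNIP3L also fell. The number called varied with the library left out, with 8 without plvx neo replicate 3, 9 without STBD1 W203C replicate 2 and 10 without STBD1 W203C replicate 1 or 3. It was 15 without plvx neo replicate 1 and 12 without plvx neo replicate 2, and limma called 1.

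Of the 20 glycolytic enzymes tested, 5 fell and 0 rose (median log2 fold change -0.08), namely HKDC1, ENO2, ALDOC, PGK1 and PFKP, and 8 were called without STBD1 W203C replicate 3. A list of 8 genes was taken from the PCR assays. The study picked these genes in this cell system, so their direction is not independent evidence. Of its 8 genes 4 fell, ENO2, ALDOC, PGK1 and PFKP. ENO2, an enolase, stood at 28.5, 30.77 and 32.01 TPM in plvx neo and at 19.17, 22.09 and 23.98 TPM in STBD1 W203C, a log2 fold change of -0.53 (SE 0.0630, adjusted p = 5.25e-06). ALDOC, an aldolase, stood at 50.39, 56.12 and 65.45 TPM against 47.68, 47.72 and 38.88 TPM, a log2 fold change of -0.43 (SE 0.0538). PGK1, phosphoglycerate kinase, had 330 ± 15.1 against 295 ± 9.43 TPM (-0.23, SE 0.0335) and PFKP, a phosphofructokinase, 190 ± 5.32 against 174 ± 3.94 TPM (-0.16, SE 0.0363; SD, n = 3 each). PFKP lost its call without STBD1 W203C replicate 1 (adjusted p = 0.0532), STBD1 W203C replicate 2 (adjusted p = 0.0505) or plvx neo replicate 3 (adjusted p = 0.0532), all by edgeR. HK1, LDHA, ALDOA and DLD did not pass the test. Their log2 fold changes were -0.13 (SE 0.0438), -0.09 (SE 0.0360), -0.07 (SE 0.0343) and 0.10 (SE 0.0437), and LDHA was called without STBD1 W203C replicate 3 (adjusted p = 0.00971, edgeR). With limma, 0 of the 20 enzymes and 0 of the 8 PCR genes were called. Of 30 genes of pyruvate entry and the TCA cycle 1 fell, DLST, a share of 3.33% against the 5.70% of all genes. The list had 2 calls without STBD1 W203C replicate 3 and 0 without any one of the other 5 libraries.

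**Figure D3:**
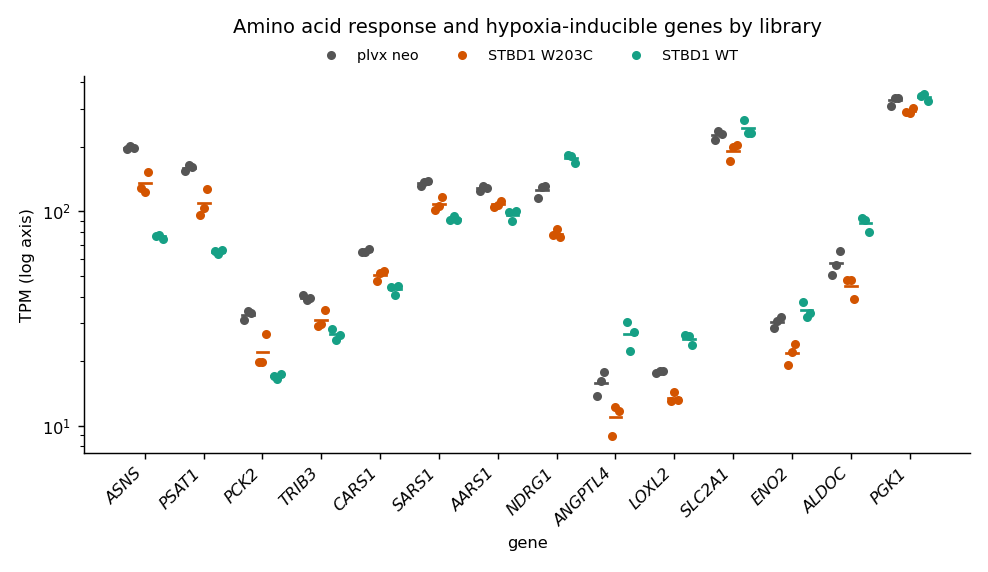
TPM on a log axis of 7 amino acid response and tRNA synthetase genes (left) and 7 hypoxia-inducible or glycolytic genes (right) in each library, with 3 points per group and a bar at the mean. Every gene shown is lower in all STBD1 W203C libraries than in all plvx neo libraries, whereas the libraries labelled STBD1 WT lie lower still for ASNS to AARS1 and above plvx neo for NDRG1, ANGPTL4, LOXL2, ENO2 and ALDOC.

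Genes of sterol and fatty acid synthesis rose in part. Of 25 sterol genes tested, 8 rose and 0 fell, with a median log2 fold change of 0.12, and all 25 had a log2 fold change above 0. HMGCS1, which makes HMG-CoA for the mevalonate pathway, stood at 48.19, 60.36 and 45.93 TPM in plvx neo and at 67.11, 70.78 and 66.52 TPM in STBD1 W203C, a log2 fold change of 0.38 (SE 0.0441, adjusted p = 3.99e-06). LSS, lanosterol synthase, had 37.8 ± 1.43 against 46.9 ± 2.83 TPM and SREBF1, the gene of a master regulator of lipid synthesis, 105 ± 6.49 against 131 ± 11.3 TPM (SD, n = 3 each). TM7SF2, DHCR7, MVD and CYP51A1 also rose, and 14 of the list were called without STBD1 W203C replicate 3. Of 14 genes of fatty acid synthesis 6 rose and 1 fell. FASN, fatty acid synthase, stood at 283.1, 258.1 and 279.8 TPM against 359.1, 374.5 and 344.3 TPM, a log2 fold change of 0.33 (SE 0.0362, adjusted p = 1.24e-06). SCD, the desaturase that makes oleate, had 320 ± 9.70 against 391 ± 34.9 TPM (0.25, SE 0.0417), and ACSS2, which makes acetyl-CoA from acetate, was the gene that fell, with 32 ± 0.936 against 24.3 ± 3.34 TPM (-0.30, SE 0.0587; SD, n = 3 each). Limma called 1 gene of each list.

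Among genes that met the same limits of 5 CPM and no overlap, KRT7 led the 12 largest falls. KRT7 (ENSG00000135480, chr12:52232520-52252186), a keratin of simple epithelia, stood at 12.82, 12.55 and 11 TPM in plvx neo and at 6.06, 4.13 and 7.58 TPM in STBD1 W203C, a log2 fold change of -1.15 (SE 0.138, adjusted p = 5.32e-06). KRT7 overlaps KRT86 on its own strand and KRT7-AS and KRT87P on the other, so its level is uncertain. Of 12 keratins tested 4 fell and 0 rose, the others being KRT81, KRT8 and KRT18. KRT18 stood at 753.6, 755.2 and 779.6 TPM against 573.7, 576.4 and 595.7 TPM and its partner KRT8 had 1940 ± 15.8 against 1503 ± 84.0 TPM (SD, n = 3 each), with log2 fold changes of -0.44 (SE 0.0343) and -0.41 (SE 0.0388). KRT8 and KRT18 overlap at their ends on opposite strands. The 14 markers of colon epithelium that include them summed to 4079 to 4192 TPM in plvx neo and 3463 to 3730 TPM in STBD1 W203C. Of the 9 tested, 3 fell (KRT18, KRT8 and CLDN7) and 1 rose (ELF3). Laminin-binding integrins also fell. ITGA3 had 106 ± 3.20 against 82.6 ± 2.61 TPM (-0.38, SE 0.0367), whereas ITGB4 (56.4 ± 4.62 against 50.5 ± 4.45 TPM) and ITGA6 (35.7 ± 5.11 against 32.4 ± 3.26 TPM) were called on counts with groups that overlapped by TPM (SD, n = 3 each). Over the 11 genes of hemidesmosomes and laminin-332, 4 fell and 2 rose, COL17A1 and the cytolinker PLEC (79.4 ± 0.188 against 92.8 ± 3.88 TPM, SD, n = 3 each). Limma called 2 keratins and 1 gene of this list.

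Targets of YAP and TEAD, the effectors of the Hippo pathway, fell in 8 of 16 cases and rose in 1 (GADD45A), with a median log2 fold change of -0.19. AXL, a receptor tyrosine kinase, stood at 8.80, 10.3 and 10.28 TPM in plvx neo and at 7.38, 7.09 and 6.74 TPM in STBD1 W203C, a log2 fold change of -0.47 (SE 0.0707, adjusted p = 0.000121, edgeR). AMOTL2, an angiomotin that restrains YAP, had 14.6 ± 0.903 against 11.2 ± 1.82 TPM (-0.45, SE 0.0623) and F3, the gene of tissue factor, 24.2 ± 1.93 against 19.3 ± 0.563 TPM (-0.39, SE 0.0607; SD, n = 3 each). CCN2, NT5E, CRIM1, ARHGEF17 and AMOTL1 made up the rest. The count was 5 without STBD1 W203C replicate 2 or plvx neo replicate 3, and limma called 1.

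The remaining large falls were TMEM158, PDGFA, CALB2, CDKN1C, COL13A1, BDNF, SYNE3 and MYZAP. TMEM158, a membrane protein induced by RAS, stood at 28.67, 27.23 and 27.59 TPM against 16.17, 16.89 and 16.5 TPM, a log2 fold change of -0.79 (SE 0.0660, adjusted p = 1.74e-08). PDGFA, a growth factor chain, had 8.66 ± 0.820 against 6.16 ± 0.563 TPM, CALB2, the calcium buffer calretinin, 6.21 ± 0.133 against 3.81 ± 0.102 TPM, and CDKN1C, the cell cycle inhibitor p57, 10.8 ± 0.749 against 6.97 ± 1.36 TPM (SD, n = 3 each). BDNF, a neurotrophin, had 5.63 ± 0.428 against 3.61 ± 0.497 TPM (SD, n = 3 each) and overlaps an antisense gene. MYZAP overlaps GCOM1 on the same strand, and it lost its call without plvx neo replicate 1 (adjusted p = 0.0671, edgeR). Of the remaining large rises, TMEM265 (5.83 ± 1.80 against 14.5 ± 2.99 TPM), RPL17-C18orf32 (3.62 ± 0.547 against 6.63 ± 1.31 TPM) and RAB43 (5.86 ± 1.19 against 6.90 ± 1.04 TPM) share exons with another gene or a read-through, and RAB43 overlapped between the groups by TPM (SD, n = 3 each).

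The other lists had few calls or calls in both directions, and limma called 0 to 2 genes in each of those that follow. The shares called were 21.7% for NRF2 targets and antioxidant genes, 10.3% for replication and mitosis and 13.3% for Wnt targets. They were 15.4% for junction genes and 23.1% for mitochondrially encoded subunits, against 5.70% of all genes. Of 23 NRF2 targets and antioxidant genes 4 rose and 1 fell (SLC7A11), led by ABCC2, an efflux pump, at 21.6 ± 1.15 against 35.8 ± 5.85 TPM (0.69, SE 0.0649), and FTL, the ferritin light chain, had 1563 ± 41.4 against 1822 ± 13.1 TPM (SD, n = 3 each). Without STBD1 W203C replicate 2 or plvx neo replicate 2, 3 of these genes were called. Of 29 genes of replication and mitosis 3 fell, E2F1 (27.1 ± 0.403 against 23.1 ± 0.197 TPM, SD, n = 3 each), MCM3 and TOP2A, and 1 was called without any one of STBD1 W203C replicates 1 and 2 and plvx neo replicates 1 and 3. Of 15 Wnt target genes RNF43 rose and DKK1, a Wnt inhibitor, fell (188 ± 5.71 against 165 ± 5.09 TPM, SD, n = 3 each), with 1 called without STBD1 W203C replicate 1, plvx neo replicate 1 or plvx neo replicate 2. Of 26 junction genes 3 rose (CLDN4, NECTIN1 and NECTIN3) and 1 fell (CLDN7). The number was 2 without STBD1 W203C replicate 1 or 2 or plvx neo replicate 1, and 1 without plvx neo replicate 3. Of the 13 mitochondrially encoded subunits MT-ND2 rose and MT-CO3 and MT-CO2 fell, while mitochondrial transcripts made up 10.0% to 10.9% of TPM in plvx neo and 10.4% to 10.6% in STBD1 W203C. Without plvx neo replicate 2, 5 of the 13 were called. Of 3 genes also followed by immunoblot, NFKB1 rose. MYC had 246 ± 6.40 against 254 ± 5.49 TPM and AKT1 93.5 ± 0.744 against 96.4 ± 10.8 TPM (SD, n = 3 each), with log2 fold changes on counts of -0.0045 (SE 0.0351) and -0.01 (SE 0.0378), not called.

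**Figure D4:**
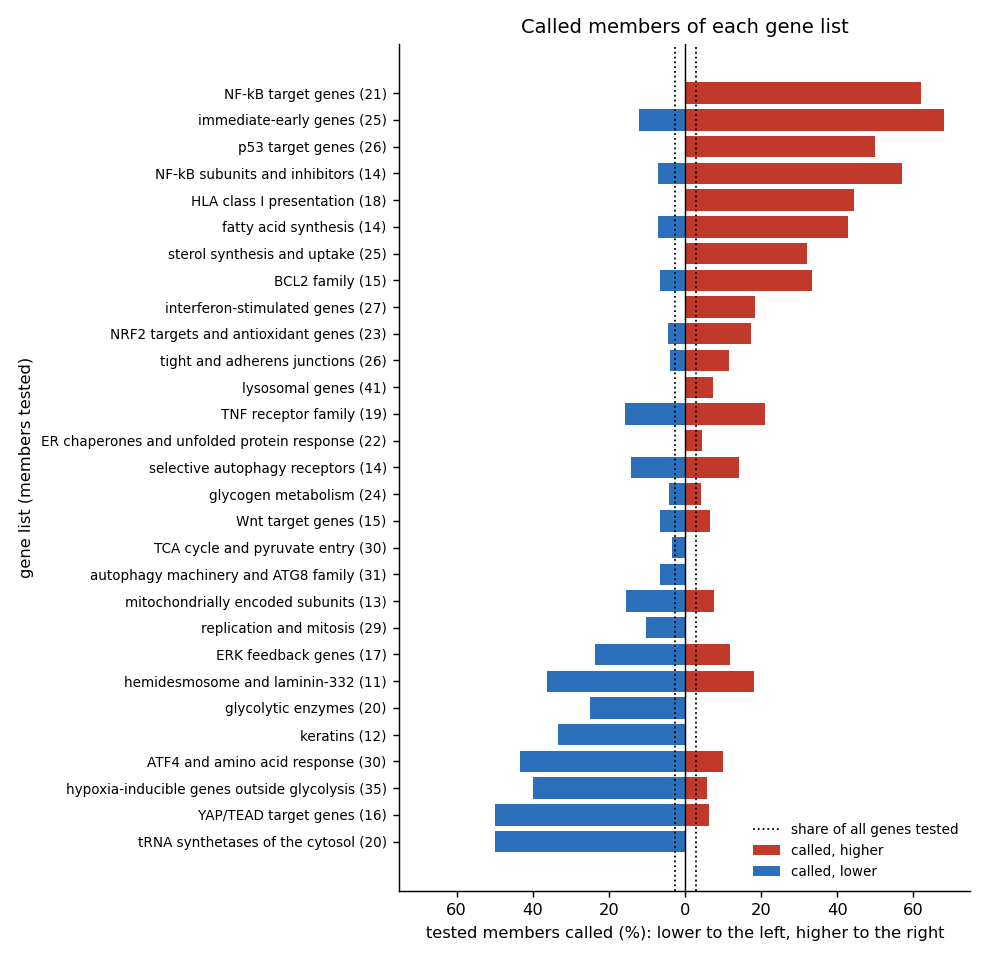
Bars give the percentage of tested members of the pathway gene lists that were called higher (red, to the right) or lower (blue, to the left) in STBD1 W203C than in plvx neo, with the number tested in brackets. The PCR, immunoblot and cell type marker lists are left out, and there are dotted lines at the shares over all genes, 3.03% and 2.67%. Lists were chosen with earlier results of these data known, so the bars are a description. Immediate-early, NF-kB and p53 lists reach furthest to the right and tRNA synthetases, YAP/TEAD targets and ATF4 genes furthest to the left. The autophagy machinery, TCA cycle and glycogen lists stay close to the dotted lines. Selective autophagy receptors, with 2 of 14 called in each direction, reach past them on both sides.

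Where the libraries labelled STBD1 WT stand was tested directly against STBD1 W203C for the named genes. Of the 15052 genes in that fit 27.9% were called. Of the 24 largest changes above, 18 differed, 17 of them lower in STBD1 W203C and RPL17-C18orf32 higher. The 24 were chosen with the same STBD1 W203C libraries, so this count is a description. STBD1 (log2 difference -0.28, SE 0.0772) and FAM47E-STBD1 (-0.27, SE 0.0575) were themselves among the genes lower in STBD1 W203C. The RNA of the construct thus differed between the groups, and its part in the other differences was not tested. BIRC3 averaged 1.04 ± 0.0721, 4.46 ± 0.512 and 10.4 TPM in plvx neo, STBD1 W203C and STBD1 WT (SD, n = 3 each), with a log2 difference of -1.33 (SE 0.0781, adjusted p = 1.75e-10) between the constructs. CXCL8 differed by -0.73 (SE 0.102), NFKB2 by -0.52 (SE 0.0394), SDC4 by -0.61 (SE 0.0386) and OPTN by -0.69 (SE 0.0534), each lower in STBD1 W203C, while CD83 (0.04, SE 0.0848) and NFKB1 (0.12, SE 0.0481) did not pass the test.

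Several genes stood on opposite sides of plvx neo in the 2 construct groups. NDRG1 averaged 126 TPM in plvx neo, 78.8 TPM in STBD1 W203C and 178 TPM in STBD1 WT, a log2 difference of -1.24 (SE 0.0411, adjusted p = 6.53e-15) between the constructs. ANGPTL4 (15.9, 11 and 26.7 TPM), LOXL2 (17.8, 13.5 and 25.5 TPM), ALDOC (57.3, 44.8 and 88.4 TPM), ENO2 (30.4, 21.7 and 34.5 TPM), TNFRSF6B (38.3, 30.7 and 94.6 TPM) and ACSS2 (32, 24.3 and 43.9 TPM) had the same order, and the difference between the constructs passed the test for each of the 6. Of the 8 PCR genes, 6 were lower in STBD1 W203C than in STBD1 WT, as labelled, with log2 differences of -0.999 for ALDOC, -0.71 for ENO2, -0.30 for HK1, -0.23 for ALDOA, -0.23 for PGK1 and -0.12 for PFKP. DLD, a subunit of the pyruvate dehydrogenase complex, was higher (0.15, SE 0.0418, adjusted p = 0.00883, edgeR) and LDHA did not pass the test (-0.11, SE 0.0410). An exchange of the 2 labels would turn each of these directions around. For NR4A3 the order was turned around, at 5.60, 8 and 3.86 TPM, with a log2 difference of 1.09 (SE 0.0874, adjusted p = 1.38e-08). ASNS and PSAT1, of the ATF4 list, were lowest in STBD1 WT. ASNS averaged 198, 135 and 76.5 TPM, a log2 difference of 0.85 (SE 0.0630, adjusted p = 4.33e-09) between the constructs, and PSAT1 160, 109 and 64.9 TPM (0.72, SE 0.0691), while CHAC1 of the same list did not pass the test between the constructs (0.18, SE 0.164, adjusted p = 0.467, edgeR). For the keratins and ATG12 no difference between the constructs was called, which does not show that they act alike. KRT8 (log2 difference 0.02, SE 0.0446), KRT18 (0.0098, SE 0.0361), KRT7 (0.26, SE 0.182) and ATG12 (-0.01, SE 0.0467) did not pass the test between them.

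**Figure D5:**
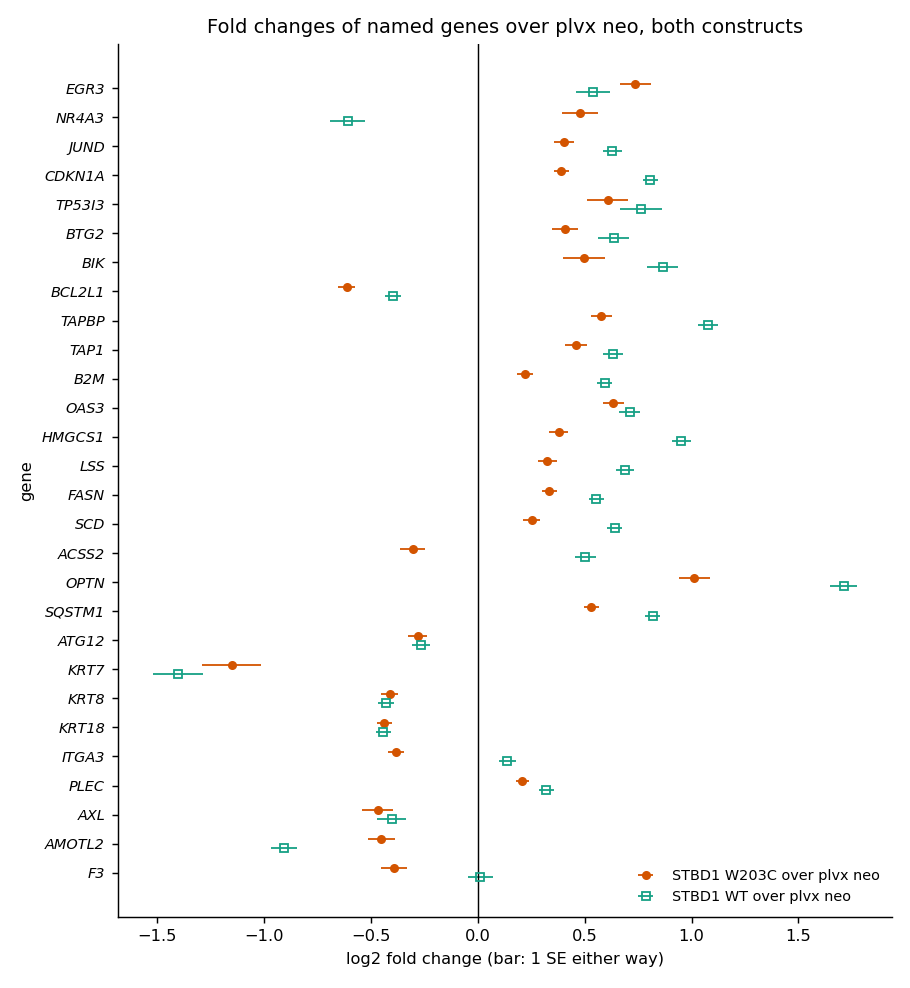
Log2 fold changes over plvx neo, with bars of 1 SE either way, of 28 named genes for STBD1 W203C (filled circles) and STBD1 WT (open squares). The 3 plvx neo libraries serve both comparisons, and the circles lie on the same side of 0 as the squares for most genes but on the other side for NR4A3, ACSS2, ITGA3 and, at 0.01, F3.

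Depth ran from 19.2 M to 20.5 M expected counts in plvx neo and from 17.3 M to 18.7 M in STBD1 W203C, so every plvx neo library was deeper than every STBD1 W203C library. The part of this in the results was not tested. The median difference between transcript length and effective length, a measure of fragment length, was 239.5 to 247.0 bases in plvx neo and 244.9 to 256.7 bases in STBD1 W203C, and its part in the results was not tested. Of the 14 colon epithelium markers, EPCAM, CDH1 and keratins were present, whereas VIL1, CDX1, LGALS4, GPA33 and CDH17 were below the count filter. CDX1 was at 0 in all 6 libraries. Fibroblast markers summed to 13.9 to 16.6 TPM in plvx neo and 12.8 to 18.4 TPM in STBD1 W203C. Only 1 of the 10 fibroblast markers averaged above 1 TPM, and DCN, LUM, PDGFRA and POSTN were at 0 throughout. Endothelial markers summed to 0.23 to 0.48 TPM in plvx neo and 0.18 to 0.34 TPM in STBD1 W203C, with ERG and EMCN at 0.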

How the data were processed

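RNA from HCT116 cells was sequenced as Illumina read pairs from NEBNext Ultra libraries. According to the methods, the authors removed low-quality reads, used STAR 2.7.1a to align against hg38 with Ensembl release 93 gene models, and ran RSEM 1.3.1 for abundances. The deposited table of each library holds expected counts, which need not be whole because reads shared by transcripts are divided, and TPM, scaled by the authors for effective length. Use of strand in counting was not given in the sources used here. The deposited FPKM, which the authors' RSEM run scaled per kilobase and by depth, was not used.

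Expected counts were rounded and tested with edgeR 4.0.16 (glmQLFit and glmQLFTest, TMM, filterByExpr, R 4.3.3) on the 6 libraries without covariates, and calls needed an adjusted p under 0.05 (Benjamini-Hochberg). The study used DESeq2 on each pair of groups. DESeq2 1.42.0, limma 3.58.1 on log2(TPM + 1), RLE and upper quartile scaling, no filter, all 9 libraries, a replicate factor and leaving out each library were alternatives, and the script was tested on simulated data. Fold changes on counts and on TPM can differ where isoform lengths shift. Named genes were STBD1, FAM47E-STBD1, the study's 8 PCR and 3 immunoblot genes, the 12 largest rises and 12 largest falls among calls that averaged 5 CPM or more, with no CPM overlap of the groups, and in each of 31 lists up to 5 called and 2 uncalled members, of which part is printed. Members and lists were chosen with earlier results of these data known. Exact permutation tests used SciPy 1.17.1. Coordinates and overlaps are from GENCODE v44 on hg38, promoters from RefSeq.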

Additional observations from a re-analysis of the deposited data

How the results depend on the processing

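Leaving out 1 library each gave 459 to 818 called genes in place of 859. The fit on log2(TPM + 1) with limma called 131, a floor of 1.5 times on the fold change kept 104, and DESeq2 called 621. RLE and upper quartile scaling both called 861, no filter 1044 and all 9 libraries 881. RLE and upper quartile scaling moved the median log2 fold change of all genes by at most 0.0063. STBD1 kept its rise in all 14 alternatives tried, with a log2 fold change from 1.25 (limma) to 2.41 (summed with FAM47E-STBD1). With the replicate number as a block 1003 genes were called, 853 of the 859 among them, and STBD1 changed by 1.45. The numbers showed little sign of pairing the samples: deviations from the group means correlated at 0.0087 on average between same-numbered libraries. The average between others was -0.0044. Deviations cancel within a group, so this second value nearly follows from the first and adds no comparison. Of the 87 called genes named with values other than STBD1, 0 changed direction, 36 kept their call in every alternative, limma ended the call of 51, and leaving out a library that of 2, PFKP and MYZAP. DESeq2 and the block ended 0 of these calls, but of all 859 calls DESeq2 shared 586. Called genes named above without values were outside this count, and several were less stable. On leaving out 1 library at a time, BNIP3L lost its call in 6 fits. WDR45B, CTSD, PPFIA4, CCN2, TOP2A and DLST lost theirs in 5 each. BNIP3L, PPFIA4, CCN2 and DLST were not called by DESeq2, and neither were others, among them IFIH1, PSME1, NECTIN3 and RNF43. MYC, near 0, changed sign with limma (0.049) and ranged from -0.024 to 0.015 on leaving out a library, and AKT1 changed sign with limma (0.037) and ranged from -0.030 to 0.0049. The 18 differences between the constructs became 16 to 20 under alternatives that were chosen after seeing the data. The cause of these shifts was not tested. With 3 libraries a group, small changes at low counts may be missed.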
